A study of Sus scrofa with 10 samples.

Results

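RNH1, the cytosolic ribonuclease inhibitor, and the secreted ribonucleases ANG, RNASE4 and RNASE6 were followed across 10 pig expression arrays of alveolar macrophages. The set was defined by gene symbol and named 5 genes, of which 4 had a row among the 13755 named genes measured. RNASET2 was not analysed here. The 4 genes had 11 probe sets, and for each gene the main probe set was the one chosen by the highest mean over the 10 arrays. RNH1 was taken up because its lower value in non-adherent cells was already known from this comparison. Its difference is therefore given as a description without a test, whereas the ribonucleases were tested in the fit over all genes. The ribonucleases, too, were chosen with earlier results of these data known.

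The cells, phagocytes that live in the airspaces of the lung, came from 5 Hampshire pigs. Frozen cells of all samples were thawed and kept overnight with recombinant human CSF-1, the macrophage growth factor. Each pig gave 1 array of cells that had stayed unattached and were then sorted for large size and high granularity (non-adherent, n = 5), and 1 array of attached cells (adherent, n = 5). Every sample carried the label untreated, 0 h. The protocol of the adherent samples nevertheless describes a lipopolysaccharide treatment and a step that takes adherent cells away. The labels used here do not state the age of the pigs. The comparison asks how unattached macrophages differ from attached ones of the same animals. The adherent arrays had been made for an earlier series and no sort is stated for them, so cell state, sort and array series cannot be told apart.

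Ribonuclease inhibitor is a horseshoe-shaped protein of leucine-rich repeats that binds ribonucleases of the RNase A family very tightly and blocks them when they reach the cytosol. It also inhibits angiogenin, the product of ANG, which cleaves transfer RNA in stressed cells and promotes blood vessel growth. RNASE4 is a secreted ribonuclease that prefers to cut after uridine, and RNASE6, known from human monocytes and macrophages, has antibacterial activity. In human and mouse, ANG and RNASE4 share promoters and untranslated first exons. In the RefSeq annotation of the pig assembly Sscrofa11.1, RNASE1, RNASE6, EDDM3B, RNASE4 and ANG follow each other in that order, whereas RNH1 lies elsewhere, between PTDSS2 and HRAS.

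One array stood apart from the rest. On the array of adherent animal 1, 195 of 13755 genes were at least 2 log2 units above the mean of the other 4 adherent arrays (1.42%). On each of the other 9 arrays, between 2 and 8 genes were that far above the rest of their group. Of 14 measured macrophage markers, 11 were highest among the adherent arrays on this array, against 28.7% of all genes. CD163, the haemoglobin scavenger receptor, read 11.28 there against 8.38 to 9.24 on the other adherent arrays, and the lysozyme gene LYZ read 12.89 against 9.82 to 11.86. CSF3R, the receptor of the granulocyte growth factor G-CSF, read 11.51 against 8.39 to 9.18. On the non-adherent array of the same animal CD163 read 10.92 and LYZ 11.99, both below the highest of that group. CSF3R was the highest of its group there, at 9.81 against 9.21 to 9.66, by a far smaller margin than on the adherent array. Results that rest on adherent animal 1 are given with and without it.

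The labelled cell type was checked against marker genes. The macrophage list averaged 9.44 to 9.88 on the non-adherent arrays, 9.99 on adherent animal 1 and 8.91 to 9.41 on the other adherent arrays. Of 14 macrophage markers 3 rose and 2 fell, against 16.5% of all genes past the threshold in either direction, and without adherent animal 1, 7 rose and 2 fell, against 22.3%. CD163, the scavenger receptor MSR1 and the phosphatase PTPRC rose by 1.51, 0.96 and 0.79, while the transcription factor PPARG and the apolipoprotein APOE fell by 0.64 and 1.21. The call of CD163 was lost without any single array other than adherent 1 (highest adjusted p = 0.0868), that of MSR1 without any other than adherent 1 and non-adherent 5 (0.073), and that of PPARG without animal 4 (0.0513). FABP4, a fatty acid binding protein of alveolar macrophages, had mean log2 values of 3.73 and 3.94 in non-adherent and adherent cells, and the integrin ITGAM 5.17 and 5.35. The antigenomic probe sets, which match no pig sequence and serve as background, averaged 4.18 and 4.48, so the FABP4 means were not above them. In the marker list of dendritic cells 5 of 7 genes rose and 0 fell, against the same 16.5%, and its mean level was 6.74 to 7.93 on the non-adherent and 5.71 to 6.10 on the adherent arrays. For neutrophils, lymphocytes and erythroid cells, 0 of 7, 0 of 13 and 0 of 5 markers passed the test, against 1 of 12 for epithelium (EPCAM, lower) and 1 of 10 for stroma (COL1A2, higher). At an unadjusted p under 0.05 in the same limma fit, 0 of the neutrophil, 2 of the lymphocyte and 0 of the erythroid markers passed. Among the dendritic markers, LAMP3, FLT3 and FSCN1 rose by 3.33, 1.91 and 1.78 in the limma fit (adjusted p = 0.000623, 0.00341 and 0.00491). Their calls held when any single array or animal was left out. The call of XCR1 was lost without any of 7 single arrays (adherent 2, 3 and 5, non-adherent 1, 3, 4 and 5; highest adjusted p = 0.0948) and that of CCR7 without animal 3 (0.0554). The call of EPCAM was lost without animal 3 or 4 (highest adjusted p = 0.0678), and that of COL1A2 without any of 7 single arrays (adherent 2, 4 and 5, non-adherent 1, 2, 4 and 5; highest adjusted p = 0.0605). A block for the animal ended the call of COL1A2 too (adjusted p = 0.0641). The part of these other cells in the results below was not tested. The BioB hybridization controls, added to every array, averaged 8.98 on the non-adherent and 5.78 on the adherent arrays, a difference between the array series that involves no pig RNA. In bulk samples, fewer cells of a type and less RNA per cell cannot be told apart.

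RNH1 read 8.46, 8.40, 8.49, 8.71 and 8.54 on the log2 scale in the non-adherent cells of animals 1 to 5. In the adherent cells of the same animals it read 10.63, 10.65, 11.15, 10.95 and 10.99. All 5 non-adherent arrays were lower, with a gap of almost 2 log2 units between the groups, and adherent animal 1 was like the other adherent arrays. The group means were 8.52 ± 0.12 and 10.88 ± 0.23 (SD, n = 5 each), a log2 difference of -2.36 ± 0.12 (SE), or 5.12-fold. Within animals the difference was -2.17, -2.25, -2.67, -2.25 and -2.46. Groups that did not overlap, with non-adherent cells lower, occurred for 8.63% of all genes. Since RNH1 was taken up for this difference, nothing is read from that share.

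The 3 probe sets of RNH1 did not move alike. The second, at 7.55, 7.25, 7.76, 8.04 and 7.94 in non-adherent and 7.92, 8.28, 8.46, 8.55 and 8.33 in adherent cells, was lower in 5 of 5 animals but with overlapping groups and a log2 difference of -0.60 ± 0.16. The third, the dimmest, at 5.41, 4.96, 5.23, 5.35 and 5.42 against 4.70, 5.05, 5.10, 5.07 and 4.92, was higher in non-adherent cells in 4 of 5 animals, with a difference of 0.31 ± 0.11. The mean of the 3 probe sets differed by -0.88 ± 0.12. The direction for RNH1 thus rests on its 2 brighter probe sets, and the size on the brightest. The position of each probe set in the transcript was not analysed here.

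**Figure D1:**
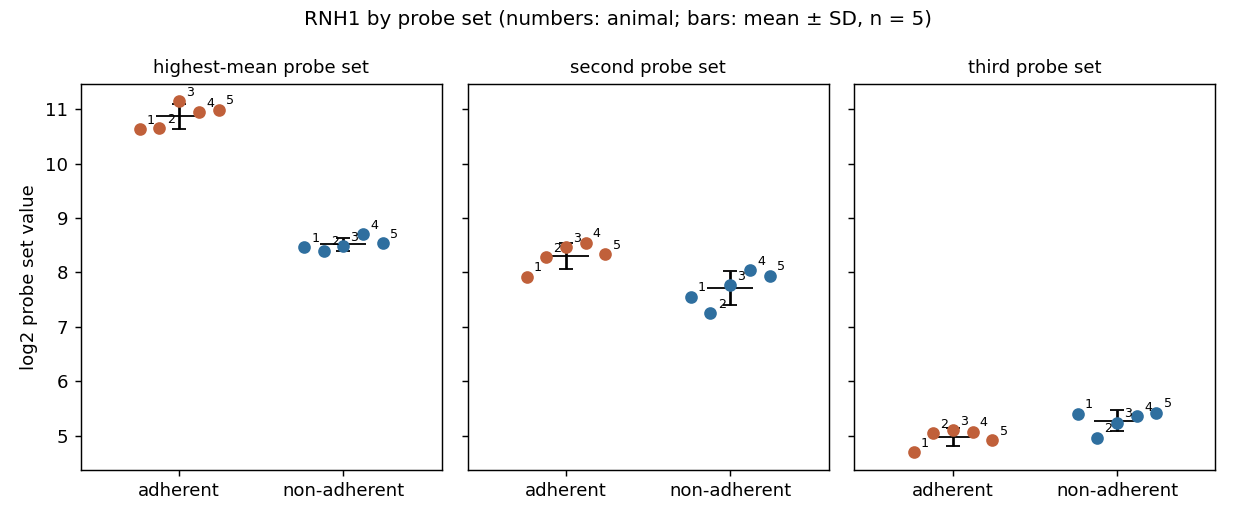
RNH1 in each array by probe set, in order of mean level, as log2 values for adherent and non-adherent cells. Points carry the animal number and bars show mean ± SD (n = 5). The brightest probe set separates the groups by more than their spread, with means of 10.88 and 8.52, the second is lower in non-adherent cells with overlap, and the third is slightly higher.

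Genes around RNH1 on the chromosome had smaller differences than its brightest probe set. Of the 12 nearest annotated genes, 6 on each side, 7 were measured and 1 passed the test. PHRF1, a nuclear ubiquitin ligase, fell by 0.59 ± 0.08 (adjusted p = 0.00101). The immediate neighbours PTDSS2, a phosphatidylserine synthase, and HRAS, a signalling GTPase, had differences of -0.37 ± 0.14 (adjusted p = 0.107) and -0.21 ± 0.16 (adjusted p = 0.385). Over all genes, 16.5% passed.

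The genes whose values followed RNH1 most closely over the 10 arrays were SLC10A3 (Pearson r = 0.994), the lysosomal transporter SPNS1 (0.992), the renin-binding protein RENBP (0.991), the transcription factor USF1 (0.990) and UBL7 (0.990), among 6756 genes considered. They had log2 differences of -1.48, -1.52, -2.00, -1.51 and -1.27, and each correlation includes the difference between the groups. After the group means were removed, the closest genes were SLC39A11 (r = 0.978), SLC5A4 (0.953), the splicing factor SNRNP40 (0.943), FAM71F2 (0.938) and NMRAL1 (0.933). Their differences between the groups lay between -0.49 (NMRAL1) and -0.02 (SNRNP40), and no gene stood in both lists. The 10 points share 5 animals and 2 array series. Each list holds the 5 highest of 6756 correlations, a selection that by itself favours high r, and no test was run on them.

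For ANG and RNASE6 the call depended on the array of adherent animal 1, whereas RNASE4 passed neither with nor without it. Among ANG, RNASE4 and RNASE6, 0 of 3 passed the limma fit over all 10 arrays (1 at an unadjusted p under 0.05), against 16.5% of all genes. Without the array of adherent animal 1, 2 of 3 passed, against 22.3% of all genes. ANG and RNASE6 were then higher in non-adherent cells, and RNASE4 was on the lower side in both fits without passing in either. Each array was left out in turn, but this one was singled out after its values were seen. The 3 genes ranked 28 (RNASE4), 38 (RNASE6) and 84 (ANG) in their excess on it, so the calls without it are no independent support.

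RNASE6 read 7.45, 7.76, 7.31, 7.49 and 7.31 in the non-adherent cells of animals 1 to 5. In adherent cells it read 9.87, 6.95, 6.43, 6.59 and 6.41. Apart from adherent animal 1, every adherent array lay below every non-adherent array. Over all arrays the log2 difference was 0.21 ± 0.57 (adjusted p = 0.837), with adherent SD 1.48 against 0.18 in non-adherent cells. Without adherent animal 1, RNASE6 rose by 0.87 ± 0.14 or 1.83-fold (adjusted p = 0.0012), from 6.60 ± 0.25 (SD, n = 4) to 7.46 ± 0.18 (n = 5). Its second probe set had differences of 0.02 ± 0.36 over all arrays and 0.42 ± 0.12 without that array (adjusted p = 0.0486 over all probe sets).

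ANG, which encodes angiogenin, read 8.54, 9.13, 8.47, 8.06 and 8.19 in non-adherent cells. The adherent cells of the same animals read 10.16, 8.09, 7.29, 7.57 and 7.22. Adherent animal 1 was again the highest array, and in the other 4 animals the non-adherent value was the higher one. The log2 difference was 0.41 ± 0.50 (adjusted p = 0.613) over all arrays. Without adherent animal 1, ANG rose by 0.94 ± 0.23 or 1.91-fold (adjusted p = 0.0146), although the groups overlapped at adherent animal 2. The second, dimmer ANG probe set differed by -0.01 ± 0.26 over all arrays and by 0.25 ± 0.14 without adherent animal 1 (adjusted p = 0.287). A probe set annotated ANG1, which RefSeq lists as a synonym of ANG, lay outside the symbol rule. It stayed within 0.42 log2 units of the main ANG probe set on each array and differed by 0.62 ± 0.55 over all arrays and by 1.18 ± 0.28 without adherent animal 1 (adjusted p = 0.018 over all probe sets).

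RNASE4 read 6.88, 7.57, 6.66, 6.35 and 6.34 in non-adherent cells. In adherent cells it read 10.95, 7.84, 7.04, 7.59 and 7.56. Non-adherent cells were lower in 5 of 5 animals, with differences of -4.07 in animal 1 and of -1.24 to -0.27 in the others, and the groups overlapped. The log2 difference of -1.44 ± 0.63 did not pass (adjusted p = 0.145), and without adherent animal 1 it was -0.75 ± 0.25 (adjusted p = 0.0511). With the animal as a block and both arrays of animal 1 left out, a setting chosen after the data were seen, RNASE4 passed at -0.78 ± 0.18 (adjusted p = 0.0134). The other 3 probe sets of RNASE4 had differences of -1.12, -0.82 and -0.83 over all arrays and of -0.36, -0.15 and -0.30 without adherent animal 1, and each was lower in 4 of 5 animals. The array maker marks probe sets that can match several transcripts with a suffix. The main probe sets of ANG and RNASE6, the ANG1 probe set and the other 3 RNASE4 probe sets carry it. The main RNASE4 probe set and the second probe sets of ANG and RNASE6 do not. In the limma fit over all probe sets without adherent animal 1, these second probe sets differed by 0.25 (ANG, adjusted p = 0.287) and 0.42 (RNASE6, adjusted p = 0.0486). Whether transcripts of another gene contribute to the probe sets with the suffix was not tested.

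Over the 8 probe sets of the 3 ribonucleases, 0 passed in the limma fit over all probe sets (1 at an unadjusted p under 0.05), against 10.8% of the 47845 probe sets. All 8 had their highest value of the 10 arrays on adherent animal 1. The excess over the mean of the other adherent arrays was 3.44 for RNASE4 (10.9-fold), 3.28 for RNASE6 (9.69-fold) and 2.62 for ANG (6.14-fold), at ranks 28, 38 and 84 among 13755 genes. RNH1, by contrast, was 0.31 lower on that array than the mean of the other adherent arrays. The RNase A family gene RNASE10 was also raised there, at 6.72 against 4.81 to 5.15, whereas RNASE1, next to RNASE6 on the chromosome, read 6.87 against 6.45 to 6.59. EDDM3B, which lies between RNASE6 and RNASE4 and is known from human epididymis, read 3.93 there against 3.57 to 3.66. All its adherent values lay below the background mean of their arrays, at 4.36 to 4.57, and in non-adherent cells it read 3.87 to 4.81 against a background of 4.13 to 4.24, so no difference is given for it. The macrophage genes CD163 and LYZ moved with the 3 ribonucleases on this array. So did the mean level of the 7 measured neutrophil markers, at 9.05. It was 8.05 to 8.55 on the other adherent and 8.47 to 8.71 on the non-adherent arrays. Of the 7 markers, 3 were highest among the adherent arrays there, against 28.7% of all genes. CSF3R and the chemokine receptor CXCR2 read 11.51 and 9.07, against at most 9.18 and 8.28 on the other adherent arrays. S100A9 read 10.61 against at most 10.16. S100A8 and S100A12 read 10.84 and 12.42, within the range of those arrays (10.05 to 11.6 and 12 to 12.43). LTF and MPO, which encode granule proteins, read 3.96 and 4.95 and were within 0.05 of the mean of those arrays. Without adherent animal 1, CSF3R rose by 0.89 in non-adherent cells (adjusted p = 0.00531). The mean level of the 12 epithelial markers was also raised on that array, 6.12 against 5.77 to 5.96 on the other adherent arrays. Of these markers, 5 were highest among the adherent arrays there, against 28.7% of all genes. CDH1 had the largest excess, at 6.13 against 4.18 to 4.53. EPCAM, by contrast, read 9.25 against 9.48 to 10.74, and KRT18 and SFTPD were also below all other adherent arrays. The stroma markers averaged 5.44 there against 5.22 to 5.35. The means of the dendritic, lymphocyte and erythroid markers lay within the range of the other adherent arrays. The part of these markers in the result was not tested.

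**Figure D2:**
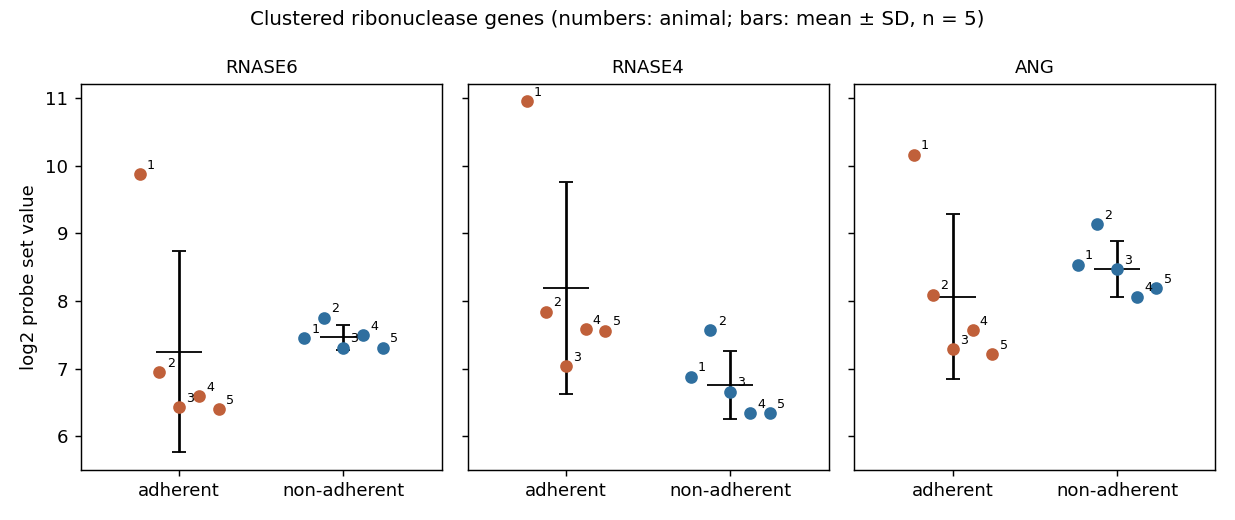
Log2 values of RNASE6, RNASE4 and ANG in adherent and non-adherent cells, main probe set of each gene, in chromosomal order. Points carry the animal number and bars show mean ± SD (n = 5). Adherent animal 1 is the highest array for each gene, at 9.87, 10.95 and 10.16, while the non-adherent array of animal 1 lies among its group.

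In non-adherent cells the order of the animals was similar for ANG and RNASE4 and partly so for RNASE6. Among adherent arrays it was the same for ANG and RNASE6, and RNASE4 departed from it. In non-adherent cells animal 2 was the highest for all 3 genes, and animal 1 was the second for ANG and RNASE4 and the third for RNASE6. Animal 4, in contrast, was the lowest non-adherent array for ANG and the fourth for RNASE4, but the second for RNASE6. Among adherent arrays, animal 1 was the highest and animal 2 the second for all 3, and animal 4 the third. Animal 5 was the lowest for ANG and RNASE6, and animal 3 the lowest for RNASE4. These orders are given as a description, and no test was run on them.

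Within an array, the difference between ANG and RNASE4 had a smaller SD in each group than either gene alone. The log2 value of ANG minus that of RNASE4 was 1.66, 1.56, 1.81, 1.72 and 1.84 in the non-adherent cells of animals 1 to 5. In adherent cells it was -0.79, 0.25, 0.25, -0.02 and -0.35. The groups did not overlap and adherent animal 1 was at the low end of its group rather than outside the direction of the others. The mean difference between the groups was 1.85, between 1.72 ± 0.11 and -0.13 ± 0.44 (SD, n = 5 each). Probes differ in brightness, so the value within an array has no meaning by itself, and only its change between arrays is read.

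RNASE6 minus RNASE4 did not overlap either, at 0.58, 0.19, 0.65, 1.15 and 0.96 in non-adherent and -1.08, -0.89, -0.61, -0.99 and -1.16 in adherent cells. ANG minus RNASE6, in contrast, overlapped between the groups, at 0.57 to 1.38 in non-adherent and 0.29 to 1.14 in adherent cells. Relative to RNASE4, both ANG and RNASE6 were thus higher on every non-adherent array than on any adherent one, by these main probe sets. Among all 8 pairings of ANG with RNASE4 probe sets, 8 had the higher mean in non-adherent cells, by 0.82 to 1.85, and 5 did not overlap. For RNASE6 with RNASE4 the counts were 8 and 6 of 8, with 0.84 to 1.65. These pairings share probe sets and are not separate results. The ones that overlapped all held the second ANG or the second RNASE6 probe set. The share without overlap among pairs of other genes was not computed. This relation was noticed in these data, so no test is given for it, and it shows unequal change rather than which of the genes changed.

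**Figure D3:**
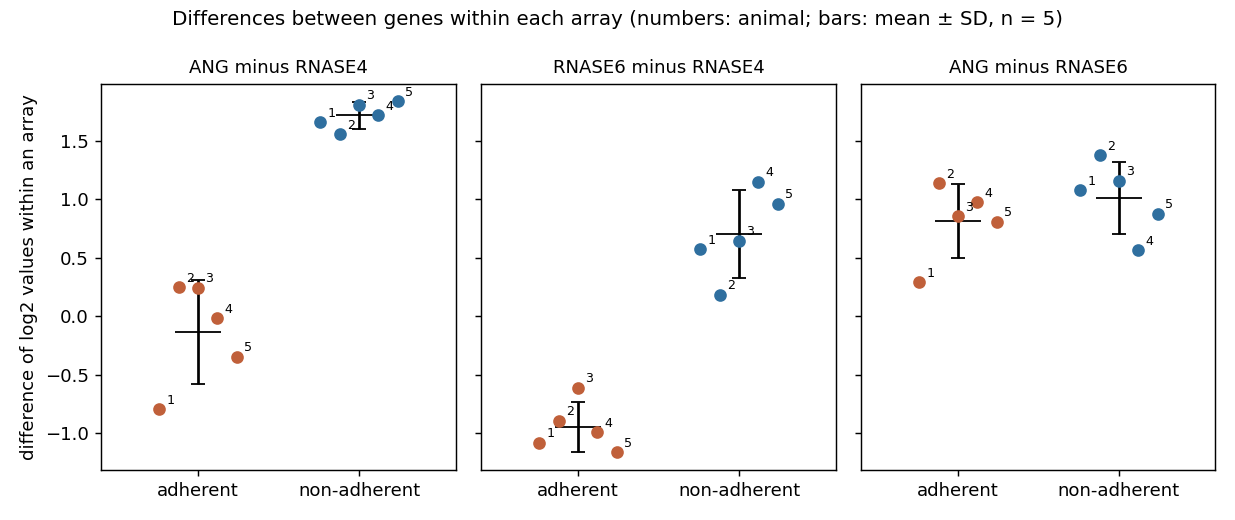
Differences between the log2 values of 2 genes within each array, for adherent and non-adherent cells, with the animal number at each point and mean ± SD (n = 5). ANG minus RNASE4 and RNASE6 minus RNASE4 separate the groups with all 10 arrays included, whereas ANG minus RNASE6 overlaps.

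Of 15 secreted ribonucleases and related genes, 9 were measured, the 3 members among them, and 0 passed the limma test (1 at an unadjusted p under 0.05), against 16.5% of all genes, with a median log2 difference of 0.14 against 0.0076 for all genes. Without adherent animal 1, 2 rose and 0 fell, namely ANG and RNASE6, against 22.3% of all genes. RNASE1, the pancreatic-type ribonuclease, ranged from 6.49 to 7.03 in non-adherent and from 6.45 to 6.87 in adherent cells and differed by 0.14 ± 0.12. RNASE9, RNASE11 and RNASE12, known mainly from the male reproductive tract, lay between 3.14 and 3.69 on all 10 arrays, below the background mean of every array.

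Among intracellular endoribonucleases, RNase P subunits and their partners, 29 of 33 genes were measured, of which 1 rose, 2 fell and 26 did not pass, against 16.5% of all genes past the threshold, with a median of -0.18. AGO2, the slicer of RNA interference (annotated under its older name EIF2C2), fell by 1.23 ± 0.13 (adjusted p = 0.000211). It read 7.93 to 8.44 on the non-adherent and 9.06 to 9.62 on the adherent arrays, without overlap. ZC3H12A, or regnase-1, which degrades cytokine messenger RNA in macrophages, fell by 0.83 ± 0.17 (adjusted p = 0.00814). RPP21, a protein subunit of RNase P, rose by 0.55 ± 0.17 (adjusted p = 0.0486). That call was lost when any array other than adherent 1 and adherent 4 was left out (highest adjusted p = 0.101). A block for the animal ended it too (adjusted p = 0.0589).

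Of 31 exoribonucleases, exosome subunits and related genes, 28 were measured, 1 rose, 2 fell and 25 did not pass, against 16.5% of all genes past the threshold, with a median of 0.07. EXOSC4, a subunit of the RNA exosome core, fell by 0.53 ± 0.10 (adjusted p = 0.00422), and EXOSC1, a cap subunit, fell by 0.57 ± 0.16 (adjusted p = 0.0387). PNPT1, the mitochondrial polynucleotide phosphorylase, rose by 0.50 ± 0.15 (adjusted p = 0.0454). The calls of EXOSC1 and PNPT1 were lost when any of 6 and 8 arrays, respectively, was left out. Those were adherent 2, 3 and 5 and non-adherent 1, 2 and 3 for both, and non-adherent 4 and 5 as well for PNPT1 (highest adjusted p = 0.0863 and 0.0981). EXOSC1 was also lost once the animal entered as a block (adjusted p = 0.0689).

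Of 14 lysosomal and cell surface genes that handle nucleic acids and nucleotides, 10 were measured, RNASE6 among them. Among these 1 rose, 1 fell and 8 did not pass, a share near the 16.5% of all genes, with a median of 0.18. ACP2, a lysosomal acid phosphatase, fell by 0.67 ± 0.08 (adjusted p = 0.000522). ENTPD1, or CD39, which hydrolyses extracellular ATP, rose by 0.75 ± 0.23 (adjusted p = 0.0477), a call lost when any array other than adherent 1 and 3 was left out (highest adjusted p = 0.102). Without adherent animal 1, 3 rose and 2 fell, against 22.3% of all genes. PLD3, an endolysosomal exonuclease, then fell by 0.77 (adjusted p = 0.000675), against -0.57 ± 0.20 (adjusted p = 0.0695) over all arrays. Its relative PLD4 read 9.38 on adherent animal 1 against 6.43 to 7.55 on the other adherent arrays.

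Endosomal receptors for RNA and their adaptors had the highest median of the lists on RNA handling, 0.55 over 9 of 15 genes measured, of which 4 rose, 1 fell and 4 did not pass, against 16.5% of all genes past the threshold. In human cells, ribonucleases of the endolysosome cut RNA into the fragments that TLR8 recognises. TLR7, a receptor for single-stranded RNA, rose by 2.34 ± 0.22 (adjusted p = 0.000101), and TLR8 by 2.15 ± 0.63 (adjusted p = 0.0388). The call of TLR8 was lost when any array other than adherent 1 and non-adherent 5 was left out (highest adjusted p = 0.0894), and its mean over probe sets differed by 0.92. The transcription factor IRF5 rose by 0.66 ± 0.16 and the kinase IRAK4 by 0.55 ± 0.15, whereas IRAK1 fell by 0.40 ± 0.10. The call of IRF5 was lost without animal 3 or 5 (highest adjusted p = 0.0845). Leaving out single arrays ended the call of IRAK4 in 5 cases (adherent 4 and 5, non-adherent 1, 3 and 4; highest adjusted p = 0.0656) and of IRAK1 in 4 (adherent 5, non-adherent 1, 2 and 3; highest 0.057). TLR3, the receptor for double-stranded RNA, read 10.54 on adherent animal 1 against 7.32 to 8.37 on the other adherent arrays, and did not pass (0.94 ± 0.54, adjusted p = 0.269). Without that array it rose by 1.51 (adjusted p = 0.00212).

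Of 15 genes of RNase L activation and stress granules, 14 were measured, 1 rose, 0 fell and 13 did not pass, against 16.5% of all genes past the threshold, with a median of 0.13. TIAL1, an RNA-binding protein of stress granules, rose by 0.36 ± 0.08 (adjusted p = 0.0103), a call lost without animal 3 or 4 (highest adjusted p = 0.0521). PPP1R15A, the stress-induced phosphatase subunit that acts on the translation factor eIF2, read 10.33 on adherent animal 1 against 7.41 to 7.80 on the other adherent arrays and 6.91 to 7.27 on the non-adherent arrays. Its difference was -1.04 ± 0.47 (adjusted p = 0.157), and without that array it fell by 0.50 (adjusted p = 0.00733).

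**Figure D4:**
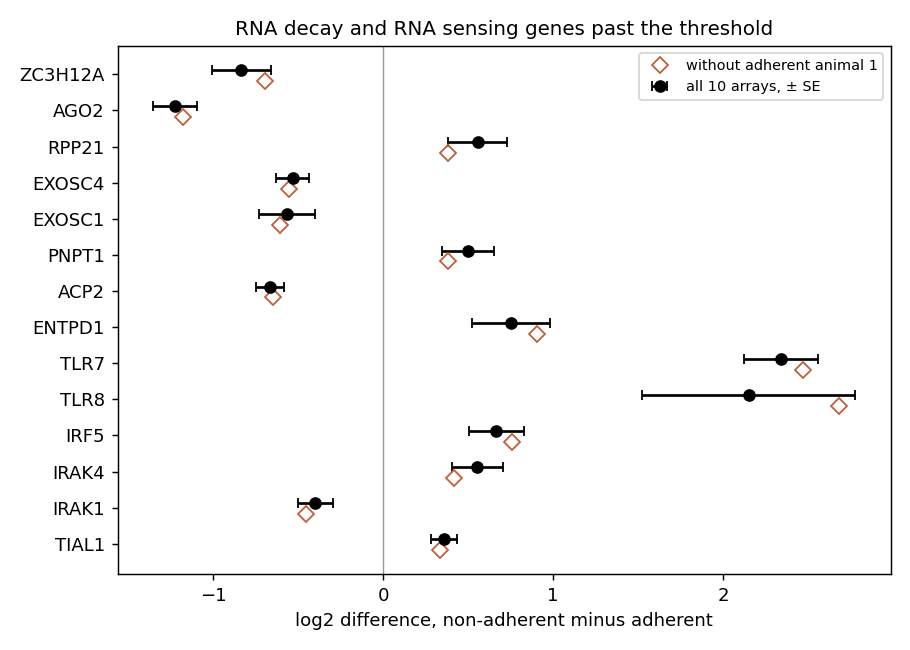
Log2 differences, non-adherent minus adherent, of RNA decay and RNA sensing genes past an adjusted p of 0.05. Filled points show all 10 arrays with SE and open diamonds the fit without adherent animal 1. AGO2 at -1.23 and TLR7 at 2.34 lie farthest to each side among the genes whose calls survived leaving out any single array.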

How the data were processed

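The authors deposited 1 log2 value per probe set of the Affymetrix Snowball pig array. Per the submitters' processing notes, RMA and Partek were used, without versions or an order of steps, and they do not say whether both array series were normalized together. The medians of the arrays ranged from 4.97 to 5.09. The number of arrays limits the precision. Of 47845 probe sets, 26426 had 1 gene symbol, 0 had several and 21419 were unnamed here. The platform annotation can be old. For each of 13755 genes the probe set of highest mean level was used (6798 genes had more than 1).

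Non-adherent was compared with adherent in limma 3.58.1 under R 4.3.3 (lmFit and eBayes, 2-sided, Benjamini-Hochberg over all genes or all probe sets, threshold 0.05). Errors are moderated SE unless marked SD. No set test was run. The members and lists were chosen with earlier results of these data known. Of 208 list genes, 167 were measured, 3 of them matched through RefSeq synonyms. Named are all members, at most 3 passing genes per direction in each list, TLR7 and TLR8, and the 5 genes most like RNH1 by each measure (mean above the median of all genes). Chromosomal neighbours, further cell type markers and genes raised on adherent animal 1 were chosen after their values were seen. A list where no gene passed is given by its count.

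Arrays were paired by animal, since each pig gave an array to both groups. The main fit held the group only, without a term for the animal, so its SE and p-values do not use the pairing. Over all genes, deviations from the group means of the paired arrays had correlations of 0.116, 0.22, 0.398, 0.364 and 0.394 (animals 1 to 5), and genes are not independent replicates in this. Alternatives used the animal as a block, left out each animal and each array, centred or quantile-normalized arrays, kept genes above the median level, used trended robust variance or array weights, or averaged probe sets. In a run on simulated data with 13755 genes, 200 of them changed, the fit of this comparison recovered 38.8%, 82.1% and 93.9% of log2 changes of 0.5, 1 and 2. Of its 152 calls, 9 were false. In the real data 16.5% of genes passed, so the recovery there can differ. It need not hold for ANG, RNASE4 and RNASE6, whose SE over all arrays were 0.50, 0.63 and 0.57. Figures were drawn with matplotlib 3.10.9.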

Additional observations from a re-analysis of the deposited data

Results flagged for a closer look

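Of 132 groups of 5 arrays checked, 14 held 1 array whose gap to the nearest other exceeded Dixon's critical value. Chance flags about 1 in 20 independent, unselected groups, but here several probe sets measure 1 gene, some genes were included because they were raised on adherent animal 1, and 12 of the 14 are that array, so that rate is no yardstick. On adherent animal 1, RNASE4 read 10.95 (next highest 7.84), with 10.64, 9.84 and 7.66 in its other probe sets, and RNASE6 read 9.87 (next 6.95), with 7.22 in its second probe set. The second ANG probe set read 7.19 there (next 6.06). On the same array RNASE10 read 6.72, EDDM3B 3.93, CSF3R 11.51 and PPP1R15A 10.33, each above the other adherent arrays, and RPP21 read 8.43, below them. On other arrays, RNASE10 read 5.91 in non-adherent animal 5 (next 5.10) and USF1 8.74 in non-adherent animal 4 (next 8.41). The causes were not tested.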

How the results depend on the processing

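The difference of RNH1 lay between -2.42 and -2.28 when arrays or animals were left out, and was -0.88 with the mean of its probe sets. ANG ranged from 0.20 to 0.94 and RNASE6 from 0.0027 to 0.87 when arrays or animals were left out, both passing only without adherent animal 1 or without animal 1. RNASE4 ranged from -1.73 to -0.75 and passed in none of these. With the animal as a replicate block, 0 of these 3 passed. With the block and without animal 1, added after the data were seen, ANG was at 0.92 (adjusted p = 0.00121), RNASE6 at 0.87 (0.00035) and RNASE4 at -0.78 (0.0134). Leaving out arrays or animals gave 1119 to 3067 genes and 2289 to 6511 probe sets past the threshold. The same settings gave 1 to 6 genes for endosomal RNA sensing, 1 to 3 for exoribonucleases and exosome, 1 to 5 for lysosomal nucleic acid disposal, 0 to 2 for RNase L and stress granules and 0 to 2 for secreted ribonucleases. With the block, lysosomal disposal had 4 genes, and RNase L and stress granules 4. With array weights these lists had 4 and 2, and exoribonucleases 5. With centred arrays lysosomal disposal had 1. The causes of these changes were not tested. RNASET2 could not be run under any setting.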
